A study of Mus musculus with 13 samples.

Results

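The 10 genes described here encode enzymes that make long-chain fatty acids and then desaturate and elongate them: Fasn, Acaca, Acly, Acss2, Scd1, Scd2, Fads1, Fads2, Elovl5 and Elovl6. They were chosen by gene symbol for their place in the pathway, and all 10 were found among the 52636 genes listed for each mouse and passed the filter on low counts that left 17086 genes for testing. RNA was sequenced from CD11b+ myeloid cells sorted by flow cytometry from the cortex and hippocampus of 13 mice aged 14 to 15 months. All mice were homozygous for PS2APP, a transgenic amyloid model that carries mutant human presenilin 2 and mutant human amyloid precursor protein. By Trem2 they fell into 7 mice with normal Trem2, here called Trem2wt and labelled PS2APP, and 6 mice with a constitutive Trem2 null allele, here called Trem2ko and labelled PS2APP;Trem2KO. The null allele was made on C57BL/6N and crossed into the C57BL/6J transgenic line, so that the knockout mice lacked Trem2 in every cell type and not in microglia alone. The sort took live CD45+ cells that were negative for Ly6g and Ccr2, so the cells were almost all microglia with a small share of perivascular macrophages.

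Cells make fatty acids from acetyl-CoA in the cytosol. ATP citrate lyase releases that acetyl-CoA from citrate, acetyl-CoA carboxylase turns it into malonyl-CoA, and fatty acid synthase joins the units into palmitate, which desaturases and elongases then convert into the mono- and polyunsaturated acyl chains of membrane phospholipids. Many of these genes are transcribed under the SREBP factors, which are held in the endoplasmic reticulum by the Insig proteins when sterols are plentiful. Trem2 is a microglial surface receptor that binds lipids and lipoproteins. Microglia that take up myelin and cell debris must handle large amounts of lipid, and the Scd and Fads enzymes set how unsaturated their membrane lipids are.

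Total gene counts per library ranged from 26120961 to 114857155 in Trem2wt (median 35201380) and from 41567025 to 120569609 in Trem2ko (median 55371726), with 5 females and 2 males in the first group and 5 females and 1 male in the second. Trem2 itself, the check of the labels, lay between 818 and 1244 nRPKM in the Trem2wt mice and between 0.393 and 2.29 nRPKM in the Trem2ko mice, where nRPKM is the authors' RPKM, a read number scaled by gene length and depth, normalised by size factors. Microglial marker genes dominated every library: the sum of 10 such genes was 14672 to 18213 nRPKM in Trem2wt and 15370 to 17216 in Trem2ko, and 1 of the 10, Cx3cr1, was called lower in Trem2ko. Across all genes tested, 348 (2.04%) passed an adjusted p of 0.05 in edgeR's quasi-likelihood test, 262 (1.53%) lower and 86 (0.503%) higher in Trem2ko. With a change of at least 2-fold required as well, 127 (0.743%) passed, 118 (0.691%) lower and 9 (0.0527%) higher. These are bulk libraries, so fewer cells of a type and less RNA per cell cannot be told apart. Each library came from the sort of a different mouse, so p-values set the genotype difference against the spread between mice.

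None of the 10 enzyme genes passed the adjusted threshold in edgeR. None passed in voom with limma either, where 1.9% of all tested genes were called lower and 0.65% higher. DESeq2, which called 5.05% of all tested genes, called 3 of the 10 lower in Trem2ko, Fasn, Acaca and Scd2, against a background of 3.1% lower and 1.94% higher. The same 3 genes had an unadjusted edgeR p under 0.05, all lower in Trem2ko, where 7.56% of all tested genes met that mark with a lower level and 7.29% with a higher one. The log2 fold change of Trem2ko over Trem2wt was negative for 9 of the 10 genes against 49.3% of all tested genes, and its median over the 10 was -0.20 against 0.004 over all tested genes. For no member did the nRPKM of the groups separate completely, which 1.18% of tested genes did with every Trem2ko mouse lower and 0.439% with every Trem2ko mouse higher.

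**Figure D1:**
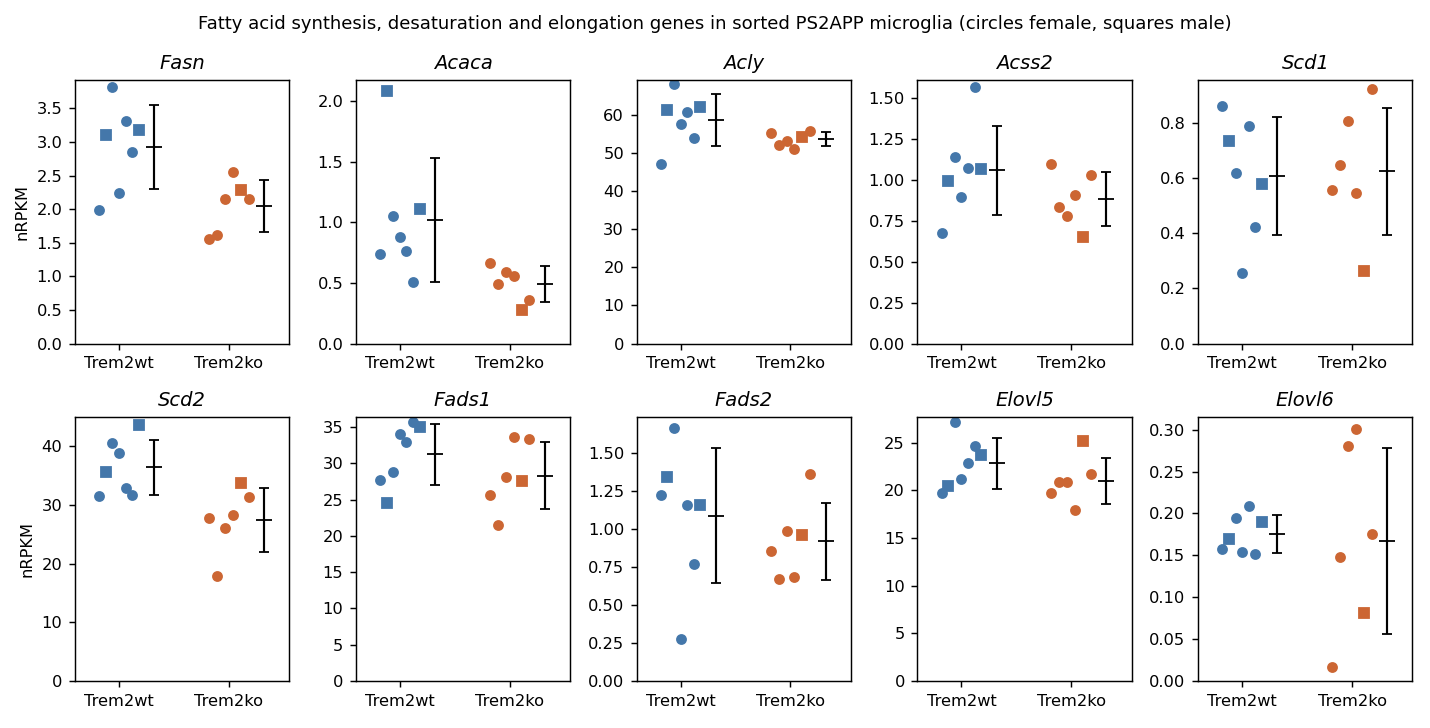
Expression level (nRPKM, linear axis from 0) of the 10 enzyme genes in each mouse, Trem2wt in blue (n = 7) and Trem2ko in orange (n = 6), circles for females and squares for males, with the mean and SD beside each group. Fasn, Acaca and Scd2 have the lowest Trem2ko values relative to Trem2wt, and the groups overlap in all 10 panels.

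The enzymes differed widely in level. Acly was the highest at a mean of 56.3 nRPKM over the 13 mice, the 96.4th percentile of all tested genes, and it exceeded Scd2 (32.3 nRPKM) in 13 of 13 mice with ranges that did not overlap. Scd2 and Fads1 (29.9 nRPKM) were neighbours that did not differ beyond their spread, Scd2 being the higher in 7 of 13 mice. Elovl5 followed at 21.99 nRPKM, below Fads1 in 13 of 13 mice although the ranges overlapped. A gap of 8.72 times then separated Elovl5 from Fasn (2.52 nRPKM), with no overlap of ranges. Fasn exceeded Fads2 in every mouse, whereas the low-level genes Fads2 (1.01 nRPKM), Acss2 (0.980), Acaca (0.776) and Scd1 (0.615) could not be ordered, each being above the next in 8 to 10 of 13 mice. Elovl6 was the lowest at 0.171 nRPKM, at the 11.7th percentile of tested genes and below Scd1 in 13 of 13 mice. These levels are per kilobase and can be set against each other, with the limit that reads in sequence shared with other genes may not have been counted.

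Fasn, fatty acid synthase, builds palmitate on a single large polypeptide and lies on chromosome 11 at 120805846 to 120824547 on the minus strand (GRCm38, as are all coordinates). Its level was 1.99 nRPKM in the lowest, 3.11 in the median and 3.81 in the highest Trem2wt mouse, and 1.56, 2.15 and 2.55 in the Trem2ko mice. Of the 7 Trem2wt mice, 5 were above every Trem2ko mouse, and 2 of the 6 Trem2ko mice were below every Trem2wt mouse. The means were 2.93 ± 0.63 (SD, n = 7) and 2.05 ± 0.39 nRPKM (SD, n = 6). The log2 fold change was -0.52 (SE 0.15, 95% interval -0.84 to -0.19) with an adjusted p of 0.107 in edgeR, 0.0790 in voom with limma and 0.0228 in DESeq2. Leaving out Trem2wt mouse 1, the lowest of its group, gave -0.59 and an adjusted p of 0.0410, and the other leave-one-out fits reached up to 0.212. Among females alone the log2 fold change was -0.51 with an adjusted p of 0.229.

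Acaca, the cytosolic acetyl-CoA carboxylase that makes malonyl-CoA (chromosome 11, 84129672 to 84401651), had the most negative fold change of the 10. The Trem2wt mice ran from 0.505 through a median of 0.880 to 2.09 nRPKM and the Trem2ko mice from 0.280 through 0.525 to 0.666 nRPKM. Of the 7 Trem2wt mice, 6 were above every Trem2ko mouse, and the remaining one, mouse 6, was level with the middle of the Trem2ko group. The means were 1.02 ± 0.51 (SD, n = 7) and 0.491 ± 0.146 nRPKM (SD, n = 6), from 207 to 1706 counts per mouse, and the log2 fold change was -1.06 (SE 0.28, 95% interval -1.66 to -0.45). The adjusted p was 0.0728 in edgeR, 0.0554 in voom with limma and 0.00508 in DESeq2. Without Trem2wt mouse 6 the adjusted p was 0.0400.

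Trem2wt mouse 2, a male, held the 2.09 nRPKM, and the next Trem2wt mouse held 1.11. That library was the shallowest of the 13 and also had the highest summed monocyte and neutrophil markers, 126 nRPKM against 6.87 to 50.8 in the other Trem2wt mice and 2.61 to 29.2 in Trem2ko, and the highest endothelial markers, 27.2 nRPKM against at most 17.0 elsewhere. Of the 8 monocyte and neutrophil markers 6 passed the filter and none of these was called between the genotypes, and Vcan, Ly6g and Retnlg stayed under 1 nRPKM in every mouse, while S100a8 (54.4 nRPKM) and S100a9 (62.7 nRPKM) made up most of the sum in mouse 2. Of the 8 endothelial markers 1, Flt1, was called lower in Trem2ko, and Cdh5 stayed under 1 nRPKM in every mouse. Without mouse 2 the Acaca log2 fold change was -0.79 with an adjusted p of 0.103, and in females alone it was -0.57 with an adjusted p of 0.215. The part of these markers in the Acaca difference was not tested.

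Acaca counts carry a further limit. Gm5182, an annotated processed pseudogene on chromosome 12 (10152142 to 10158233), is 99.7% identical to the Acaca coding sequence over 6085 aligned bases, and 71.1% of all 50-base stretches of that coding sequence, the read length used, occur unchanged in Gm5182. The authors counted reads that aligned uniquely, and a read from such a stretch fits both copies equally in transcript sequence. How the aligner placed such reads, also those across Acaca exon junctions, was not tested. Gm5182 counts may therefore hold reads from Acaca. Of 48 aligned windows of 120 bases, 33 were identical, and the window with the most differences had 2. It is shown to make plain how few bases separate the copies, with the differing bases in capitals and both sequences taken from the GENCODE transcripts.
Acaca coding bases 2963 to 3082: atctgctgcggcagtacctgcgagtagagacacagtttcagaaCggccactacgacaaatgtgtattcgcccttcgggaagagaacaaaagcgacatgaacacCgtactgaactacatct
Gm5182 transcript bases 2043 to 2162: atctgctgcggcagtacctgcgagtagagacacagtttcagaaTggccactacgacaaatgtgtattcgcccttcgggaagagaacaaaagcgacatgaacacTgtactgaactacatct

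Gm5182 held 26.3% to 43.1% of the counts assigned to either gene in each mouse. Its level moved with Acaca across the mice: Trem2wt mouse 2 was the highest for both, at 2.09 nRPKM for Acaca and 1.84 for Gm5182. The pseudogene's log2 fold change was -1.18 (SE 0.34, 95% interval -1.90 to -0.46) with an adjusted p of 0.0966. With the counts of both added together, a choice made after the data were seen, the log2 fold change was -1.10 (SE 0.29, 95% interval -1.73 to -0.47) and the adjusted p 0.0720. Over all 13 mice the difference in Acaca counts was as large with the pseudogene's counts included. Reads that aligned to both copies equally were in neither count. The sum was not fitted without Trem2wt mouse 2 or in females alone. In females alone the edgeR log2 fold change of Gm5182 was -0.62 with an adjusted p of 0.321.

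**Figure D2:**
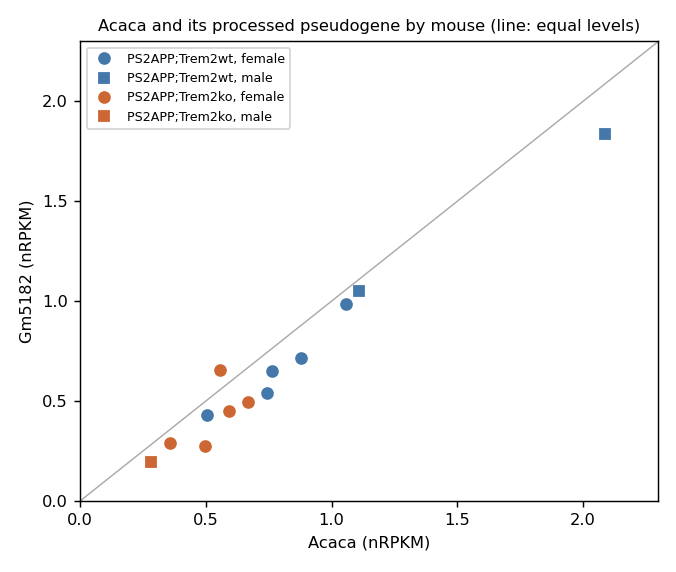
Level of Gm5182 (nRPKM) against the level of Acaca (nRPKM) in each of the 13 mice, with the line of equal levels; circles are females and squares males. One Trem2wt male stands apart at 2.09 and 1.84 nRPKM, and the 6 Trem2ko mice lie at the low end for Acaca.

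Acly, the citrate lyase that supplies cytosolic acetyl-CoA (chromosome 11, 100476353 to 100528000), was abundant in both genotypes. Means were 58.6 ± 6.7 nRPKM (SD, n = 7) in Trem2wt and 53.6 ± 1.8 (SD, n = 6) in Trem2ko, and the log2 fold change was -0.13 (SE 0.08, 95% interval -0.29 to 0.03, adjusted p = 0.442). Of the Trem2wt mice 5 were above every Trem2ko mouse, but Trem2wt mouse 1, at 47.1 nRPKM, was the lowest of all 13. The Trem2ko mice lay between 51.1 and 55.7 nRPKM, inside the Trem2wt range of 47.1 to 68.1. Acss2, the synthetase that makes acetyl-CoA from acetate (chromosome 2, 155517948 to 155585724), had means of 1.06 ± 0.27 (SD, n = 7) and 0.885 ± 0.163 nRPKM (SD, n = 6) with heavily overlapping groups. The edgeR estimate was -0.26 on the log2 scale (SE 0.18, 95% interval -0.64 to 0.11, adjusted p = 0.528). Antisense and neighbouring genes overlap its exons, 3.89% of the exon bases in the case of Gss, and the use of strand in counting was not stated.

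Scd2 and Scd1 are stearoyl-CoA desaturases, which put the first double bond into palmitate and stearate, and both lie on chromosome 19 (Scd2 at 44293674 to 44306864, Scd1 at 44394455 to 44407879). Scd2, the form known as the main one in brain, was much the higher of the pair, with a mean of 32.3 nRPKM over the 13 mice against 0.615 for Scd1. Its Trem2wt mice ran from 31.5 through 35.6 to 43.7 nRPKM and its Trem2ko mice from 17.8 through 28.0 to 33.7 nRPKM. Of the 6 Trem2ko mice, 5 were below every Trem2wt mouse, the exception being mouse 5, the single Trem2ko male. Means were 36.4 ± 4.7 (SD, n = 7) and 27.5 ± 5.5 nRPKM (SD, n = 6). The log2 fold change was -0.41 (SE 0.13, 95% interval -0.68 to -0.14) with an adjusted p of 0.123 in edgeR, 0.0990 in voom with limma and 0.0340 in DESeq2. Trem2ko mouse 2 was the lowest at 17.8 nRPKM, and without it the log2 fold change was -0.31. In females alone it was -0.42 with an adjusted p of 0.164.

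Scd1, more prominent in liver and fat, overlapped between the genotypes throughout. Its levels were 0.254, 0.617 and 0.860 nRPKM (lowest, median, highest) in Trem2wt and 0.263, 0.602 and 0.922 in Trem2ko. The log2 fold change was 0.03 (SE 0.29, 95% interval -0.59 to 0.64, adjusted p = 0.979), an interval that runs from 0.666 to 1.56 as a fold of Trem2ko over Trem2wt, and its sign turned in voom with limma (-0.15) and with sex in the model (-0.05). The Scd1 to Scd2 ratio averaged -5.54 ± 0.80 on the log2 scale in Trem2ko (SD, n = 6) and -5.99 ± 0.69 in Trem2wt (SD, n = 7). That difference of 0.45 had p = 0.298 in a two-sided exact permutation test over the 1716 splits (adjusted p = 0.834 over 3 ratios). Without Trem2ko mouse 5 it rose to 0.75 with an unadjusted p of 0.0429 in the same test. That was the lowest p of 13 leave-one-out fits, which ran up to 0.539. The coding sequences are 90.7% identical, and 145 of the 1016 stretches of 50 bases in Scd1 occur in Scd2. The longest identical run, 147 bases, is shown with its flanks because unique counting leaves reads inside it unassigned, with the bases that differ in capitals.
Scd1 coding bases 513 to 679: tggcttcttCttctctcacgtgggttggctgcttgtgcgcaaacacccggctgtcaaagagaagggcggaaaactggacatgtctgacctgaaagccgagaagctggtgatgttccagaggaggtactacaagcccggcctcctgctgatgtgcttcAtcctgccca
Scd2 coding bases 522 to 688: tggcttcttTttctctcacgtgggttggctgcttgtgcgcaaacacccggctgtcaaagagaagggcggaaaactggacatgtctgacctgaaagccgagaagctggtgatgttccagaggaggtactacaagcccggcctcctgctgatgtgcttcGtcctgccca

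Over whole transcripts the part shared with any other gene is small, 4.56% of the 50-base stretches of Scd1 and 3.97% of those of Scd2. Scd1 shares most with Scd3 (3.42%), and Scd2 shares most with Scd1 (2.66%).

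Fads1 and Fads2 are the front-end desaturases that act in turn on the way to arachidonic and docosahexaenoic acid, and both lie on chromosome 19 (Fads2 at 10062765 to 10101746, Fads1 at 10182888 to 10196877). Fads1 was the abundant one: 31.3 ± 4.2 nRPKM in Trem2wt (SD, n = 7) and 28.3 ± 4.7 in Trem2ko (SD, n = 6). In edgeR the log2 difference was -0.15 (SE 0.11, 95% interval -0.39 to 0.10, adjusted p = 0.596), with 3 Trem2wt mice above every Trem2ko mouse. Fads2, which acts before Fads1, stood at 1.08 ± 0.44 (SD, n = 7) and 0.917 ± 0.254 nRPKM (SD, n = 6) and had a log2 fold change of -0.25 (SE 0.31, 95% interval -0.91 to 0.40, adjusted p = 0.758). Trem2wt mouse 4 was far below the rest for Fads2, at 0.277 nRPKM and 16 counts against 0.669 to 1.66 nRPKM in the other 12 mice. The same mouse had the lowest Scd1 (0.254 nRPKM) and the lowest sum of 8 astrocyte markers, 69.8 nRPKM against 77.8 to 103 elsewhere. It was also the lowest of all 13 for the sum of 8 border macrophage markers, 11.6 nRPKM against 16.2 to 54.7 elsewhere, and, by a narrow margin, for the sum of 8 neuron markers (4.45 nRPKM). None of the markers in these 3 lists was called between genotypes in edgeR, and the astrocyte markers Aqp4 and Slc4a4 were under 1 nRPKM in every mouse. Slc1a3, the astrocyte marker of the highest level (mean 51.9 nRPKM over the 13 mice), was 0.30 higher in Trem2ko on the log2 scale. Its adjusted p was 0.0533 in edgeR, 0.0487 in voom with limma and 0.0023 in DESeq2. The part of the markers in these lists in the Fads2 and Scd1 values was not tested. Without this mouse the Fads2 log2 fold change was -0.42 with an adjusted p of 0.438. The Fads1 to Fads2 ratio differed between genotypes by -0.03 on the log2 scale (p = 0.976, exact permutation test). The 2 coding sequences are 69.4% identical and share no run of 50 bases.

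Elovl5 and Elovl6 add carbon units to fatty acyl chains, Elovl5 to polyunsaturated and Elovl6 to saturated and monounsaturated ones. Elovl5 (chromosome 9, 77917364 to 77984519) was at 22.8 ± 2.6 nRPKM in Trem2wt (SD, n = 7) and 21.0 ± 2.4 in Trem2ko (SD, n = 6). The log2 fold change was -0.12 (SE 0.09, 95% interval -0.31 to 0.07, adjusted p = 0.578), with 1 Trem2wt mouse above and 1 Trem2ko mouse below the other group. Elovl6 (chromosome 3, 129532355 to 129638495) rested on 18 to 189 counts per mouse. It was tight in Trem2wt, 0.151 to 0.209 nRPKM, and spread out in Trem2ko, from 0.0165 through 0.162 to 0.301 nRPKM, with 3 Trem2ko mice below and 2 above every Trem2wt mouse. The log2 fold change was -0.09 (SE 0.44, 95% interval -1.02 to 0.85, adjusted p = 0.959), and without Trem2ko mouse 1, the lowest, it turned to 0.16. In voom with limma it was -1.03 (adjusted p = 0.379). The Elovl6 to Elovl5 ratio was lower in Trem2ko by 0.42 on the log2 scale on average (p = 0.556, exact permutation test), a sign that also turned without that mouse. The smallest p this permutation test can give is 0.00117.

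**Figure D3:**
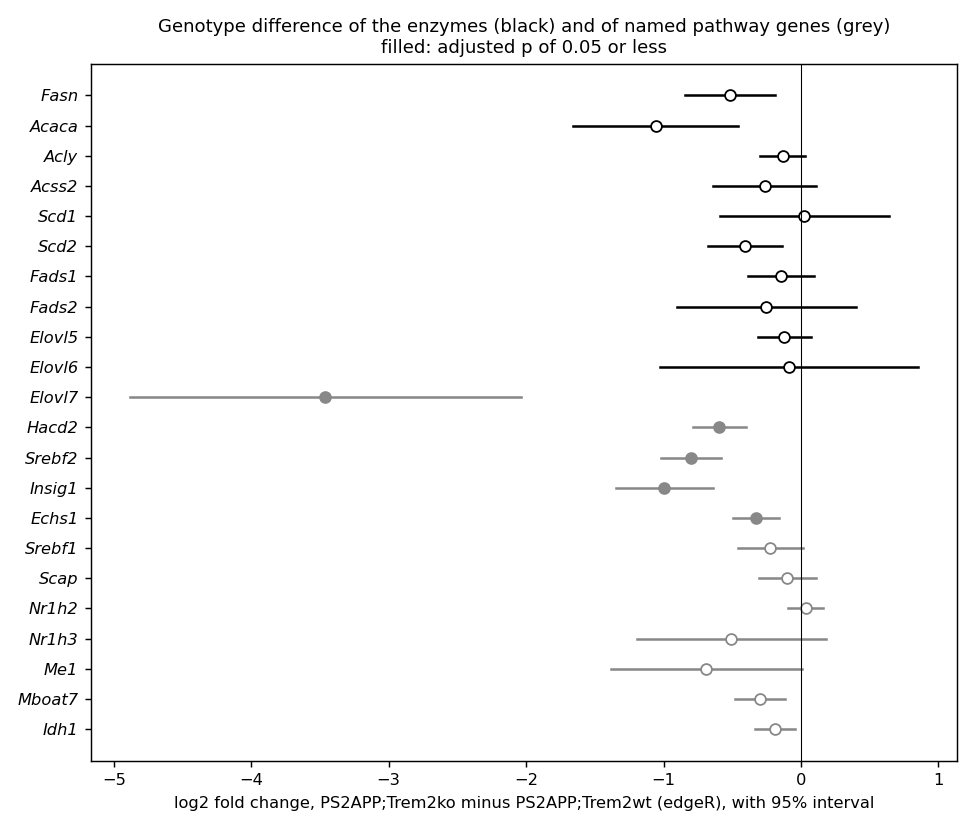
Log2 fold change of Trem2ko over Trem2wt with its 95% interval from edgeR for the 10 enzyme genes (black) and 12 other named genes of the pathway (grey); filled points have an adjusted p of 0.05 or less. Of the 10 enzymes the intervals of Fasn, Acaca and Scd2 lie below 0, and the filled points are Elovl7, Hacd2, Srebf2, Insig1 and Echs1, all lower.

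Around the 10 enzymes, 86 further genes of fatty acid metabolism were taken as 6 lists, of which 85 were found in the files, the exception being Hsd17b8. Among 12 tested genes (of 15 listed) of the other desaturases, elongases and their partner enzymes, 2 passed the threshold, both lower in Trem2ko, against 1.53% of all tested genes called lower, and the median log2 fold change was -0.11. Elovl7, an elongase of long saturated chains, was at 0.211, 0.341 and 1.05 nRPKM (lowest, median, highest) in Trem2wt and at 0.0028, 0.0434 and 0.0940 nRPKM in Trem2ko, with no overlap. It fell by 3.46 on the log2 scale (SE 0.67, 95% interval -4.88 to -2.04, adjusted p = 0.0120) and was called in all 13 leave-one-out fits and in all 9 other alternatives. Its counts were low, 44 to 362 in Trem2wt and 2 to 48 in Trem2ko. Hacd2, a dehydratase of the elongation cycle that serves several elongases, fell by 0.59 (SE 0.09, adjusted p = 0.00212) from 7.93 ± 1.03 nRPKM (SD, n = 7) to 5.26 ± 0.44 (SD, n = 6), again with no overlap and in all 13 leave-one-out fits. Fads3, a desaturase relative beside Fads2 that is named here after its values were seen, lay the other way, at 0.743 ± 0.228 nRPKM (SD, n = 7) in Trem2wt and 1.43 ± 0.55 (SD, n = 6) in Trem2ko. The edgeR estimate was 0.94 on the log2 scale (SE 0.24, 95% interval 0.43 to 1.45), with an adjusted p of 0.0583 in edgeR and 0.006 in DESeq2, and 4 of 6 Trem2ko mice were above every Trem2wt mouse.

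Among 20 regulators of fatty acid synthesis, 2 passed the threshold, both lower, against the same 1.53% of all tested genes, and the median log2 fold change was -0.07. Srebf2, the SREBP gene whose product acts mainly on sterol synthesis genes, was 5.73 ± 0.82 nRPKM in Trem2wt (SD, n = 7) and 3.30 ± 0.41 in Trem2ko (SD, n = 6). It fell by 0.80 (SE 0.10, 95% interval -1.02 to -0.58, adjusted p = 0.000467), with every Trem2ko mouse below every Trem2wt mouse. Insig1, a sterol-responsive retention protein for the SREBPs and itself a known SREBP target, fell by 0.995 (SE 0.17, 95% interval -1.35 to -0.64, adjusted p = 0.00410) from 4.13 ± 0.71 nRPKM (SD, n = 7) to 2.08 ± 0.50 (SD, n = 6), also without overlap. Both were called in all 13 leave-one-out fits and all 9 other alternatives. Srebf1, the SREBP gene most tied to fatty acid synthesis, did not pass: 15.2 ± 3.1 nRPKM in Trem2wt (SD, n = 7) and 13.1 ± 0.7 in Trem2ko (SD, n = 6), a log2 fold change of -0.22 (95% interval -0.46 to 0.01, adjusted p = 0.369). Trem2wt mouse 3 held the highest Srebf1, 21.7 nRPKM, and was also the highest of its group for Fasn, Acly, Fads2 and Elovl5. It was not the highest for the other enzymes, and its Fads1 lay below the genotype mean (-0.105 on the log2 scale). Of the other regulators named here, it was the highest of its group for Srebf2 (7.12 nRPKM), Insig1 (5.03), Scap (16.8) and Nr1h2 (27.9). For Nr1h3 (0.735 nRPKM) it was not. Among fatty acid oxidation genes the same mouse was the highest of its group for Cpt1a (15.3 nRPKM) and Echs1 (57.5 nRPKM), but the lowest for Cpt1b (0.0569 nRPKM). Whether the enzyme levels followed Srebf1 was not tested. Scap, the escort protein of the SREBPs, had a log2 fold change of -0.10 (adjusted p = 0.692). The liver X receptor genes Nr1h2 and Nr1h3, which act upstream of Srebf1, had values of 0.03 (95% interval -0.09 to 0.16, adjusted p = 0.849) and -0.51 (95% interval -1.19 to 0.18, adjusted p = 0.505).

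The remaining 4 lists gave 1 call, a share near the 2.04% of all tested genes called in either direction. Among 19 fatty acid oxidation genes the median log2 fold change was 0.01, and Echs1, the mitochondrial enoyl-CoA hydratase, fell by 0.33 (SE 0.08, adjusted p = 0.0418) from 48.3 ± 5.4 nRPKM (SD, n = 7) to 38.5 ± 2.8 (SD, n = 6). That call was kept in 3 of 13 leave-one-out fits, with adjusted p from 0.0279 to 0.103. No gene passed among 8 tested of 11 other synthesis genes (median -0.05), where Me1, the cytosolic malic enzyme, had the smallest p at a log2 fold change of -0.69 (adjusted p = 0.344). None passed among 14 genes that activate fatty acids or place them in phospholipids (median -0.07), where Mboat7, an acyltransferase for phosphatidylinositol, had -0.30 (adjusted p = 0.0920 in edgeR, 0.0182 in DESeq2). None passed among 7 NADPH supply genes (median -0.06), where Idh1 had -0.19 (adjusted p = 0.202). No gene of the 6 lists was called higher in Trem2ko. In the 50-base comparison over whole transcripts, 30.4% of Acaca stretches and 28.3% of Me1 stretches also occur in other annotated genes. The shares were 9.96% for Scap, 6.74% for Hacd2, 6.13% for Acss2 and 5.47% for Echs1. These were the highest shares among the named genes. The counts of these genes carry the same kind of limit as those of Acaca, over a smaller part of their sequence.

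**Figure D4:**
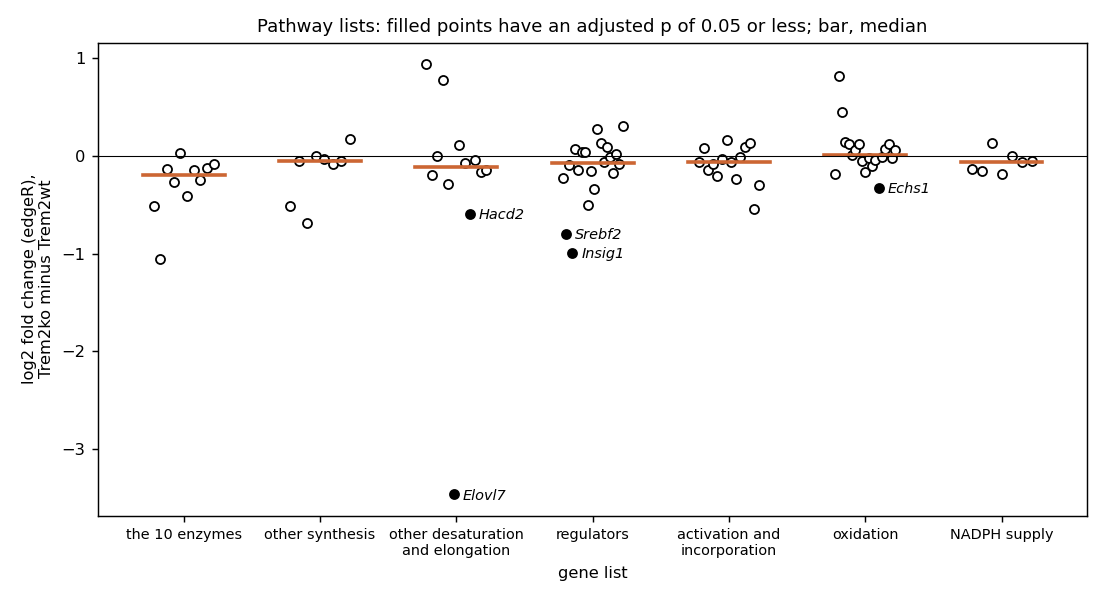
Log2 fold change of Trem2ko over Trem2wt (edgeR) for each tested gene of the 10 enzymes and of the 6 pathway lists, with the list median as a bar; filled points have an adjusted p of 0.05 or less and are named. The list medians lie between -0.20 for the 10 enzymes and 0.01 for the oxidation genes, and Elovl7 at -3.46 is the lowest point.

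Within a genotype, some mice were high or low for most of the 10 genes, while single pairs of genes ranged from alike to opposed. With each mouse expressed as its deviation from its genotype mean on the log2(nRPKM + 0.1) scale, the likeness (Pearson correlation over 13 mice that share library, depth and normalisation) of the 45 gene pairs had a median of 0.16 and was positive in 33. The pairs most alike were Scd1 with Fads2 (0.67) and Fasn with Acly (0.62), and the least alike was Acaca with Fads1 (-0.47). Scd1 and Scd2 themselves had a likeness of -0.31. Trem2wt mouse 7 was above its genotype mean for all 10 genes, Trem2wt mouse 3 and Trem2ko mouse 6 for 9, and Trem2wt mice 1 and 4 for 2. The spread among mice was smallest for Acly in Trem2ko, an SD of 0.05 on this log2 scale, and largest for Fads2 in Trem2wt (0.74) and Elovl6 in Trem2ko (0.67). Counting error was computed from the square root of the counts, on a log2 scale without the added 0.1. It was small beside the spread for the abundant genes, 0.0143 for Acly in the shallowest case. It reached 0.361 for Fads2 and 0.340 for Elovl6 in the mouse with the fewest counts. At such low levels the added 0.1 shrinks differences, so these 2 values cannot be read as parts of the SDs above.

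**Figure D5:**
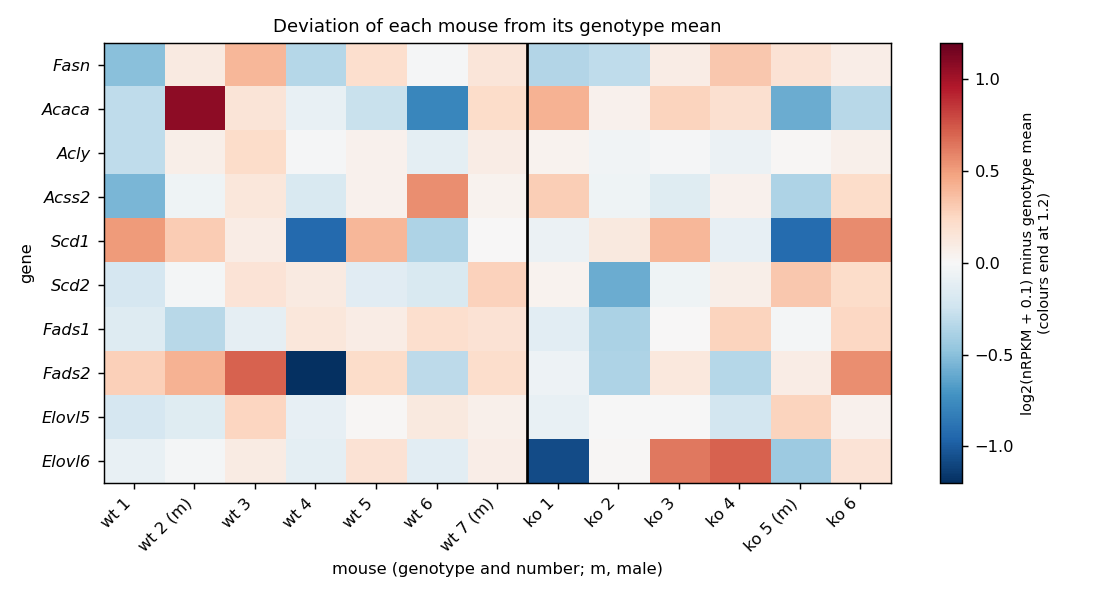
Deviation of each mouse from its genotype mean, on the log2(nRPKM + 0.1) scale, for the 10 enzyme genes, with red above and blue below the mean and the colours ending at 1.2. The largest deviations are Fads2 in Trem2wt mouse 4 (-1.52), Elovl6 in Trem2ko mouse 1 (-1.08) and Acaca in Trem2wt mouse 2 (1.07).

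Each enzyme was also set against 10996 other genes with a mean of at least 1 nRPKM, and the one gene with the most similar deviations over the 13 mice was taken. For Fasn it was Gm6493 (likeness 0.92), for Acaca Cwc25 (0.85), for Acly Pitpnm1 (0.95), for Acss2 Emc2 (0.92) and for Scd1 Ift22 (0.83). For Scd2 it was Rptor (0.92), for Fads1 Vav2 (0.91), for Fads2 Psma8 (0.92), for Elovl5 Abhd4 (0.90) and for Elovl6 Cacnb2 (0.91). A best match among so many genes over 13 mice is high by construction, and of these 10 genes Gm6493 alone was called between genotypes, at a log2 fold change of -0.57 (adjusted p = 0.0194).

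Promoter sequence was at hand for 7 of the 10 enzymes (RefSeq, GRCm38.p6), the genes not covered being Scd1, Scd2 and Fads1. The 250 bases before each start were searched on both strands for CCAAT, for the GC box GGGCGG, for the E-box CACGTG and for the sterol regulatory element TCACNCCAC. The windows of Fasn and Acly are shown because these are the synthesis genes whose levels moved most alike across mice, with CCAAT or its reverse complement ATTGG and GGGCGG or its reverse complement CCGCCC in capitals.
Fasn (chr11:120824548-120824797, minus strand): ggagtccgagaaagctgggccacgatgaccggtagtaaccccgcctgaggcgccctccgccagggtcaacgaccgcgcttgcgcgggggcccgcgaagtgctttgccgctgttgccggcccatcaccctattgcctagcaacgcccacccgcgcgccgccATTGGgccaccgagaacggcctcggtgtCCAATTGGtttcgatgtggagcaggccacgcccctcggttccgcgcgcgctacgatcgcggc
Acly (chr11:100528001-100528250, minus strand): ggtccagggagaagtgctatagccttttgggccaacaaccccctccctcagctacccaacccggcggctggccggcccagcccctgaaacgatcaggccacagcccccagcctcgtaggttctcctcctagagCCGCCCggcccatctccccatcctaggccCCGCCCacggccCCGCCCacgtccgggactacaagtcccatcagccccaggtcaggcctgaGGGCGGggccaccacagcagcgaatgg

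The Fasn window holds CCAAT matches, of which 2 overlap as 1 match on each strand, and no GC box. The Acly window holds GC boxes and no CCAAT match, so the pair shares neither motif. CCAAT was found in 3 of the 7 enzyme promoters (Fasn, Acss2, Elovl5) and in 33.8% of the 32851 promoters of that length, and the GC box in 3 of 7 (Acly, Acss2, Fads2) and in 32.7%. The E-box occurred in Elovl5 only, and in 6.02% of all promoters. TCACNCCAC occurred in none of the 7 windows and in 1.05% of all promoters. It was also absent from the Insig1 window, although Insig1 is a known SREBP target. Other forms of the sterol regulatory element were not searched for, so this search cannot show that SREBP sites are absent. The Acaca window (chr11:84195188-84195437, plus strand) precedes a RefSeq start that lies inside the gene's GENCODE span of 84129672 to 84401651. The sequence before the outermost Acaca start was therefore not searched.

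Sex was unequal between the groups and few males were measured. With sex as a covariate the log2 fold changes were -0.50 for Fasn, -0.91 for Acaca and -0.38 for Scd2, with adjusted p from 0.119 to 0.130. In the 5 females of each genotype, Acaca had a value of -0.57, close to that of Fasn (-0.51). The 2 Trem2wt males held the highest Acaca levels of their group (2.09 and 1.11 nRPKM), and the Trem2ko male held the lowest of its own (0.280 nRPKM). Whether the genotype difference itself differed between sexes could not be decided for the 10 enzymes and the 12 other named genes. Such a test rests on 1 Trem2ko male and 2 Trem2wt males. Oligodendrocytes make large amounts of lipid for myelin, and their markers overlapped between the groups: the sum of 10 genes was 56.6 to 74.1 nRPKM in Trem2wt and 51.6 to 66.7 in Trem2ko, none of the 9 that were tested was called, and Mog, Cldn11, Ugt8a, Opalin and Ermn were under 1 nRPKM in every mouse. Border macrophage markers (8 genes) summed to 11.6 to 35.8 nRPKM in Trem2wt and 20.1 to 54.7 in Trem2ko, and neuron markers (8 genes) to 4.45 to 12.95 and 4.46 to 13.5, with no call in either list. The part of these markers in the enzyme levels was not tested.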

How the data were processed

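RNA from sorted cells was amplified with SMART-seq v4 and sequenced on a HiSeq4000 as 50-base single reads. Per the submitters' processing notes and the study's methods, reads were aligned with GSNAP to GRCm38 (version not given in the sources used here) after removal of low-quality, adapter and ribosomal reads. The deposited counts are, per the authors, reads aligned uniquely to a gene model, and the deposited nRPKM values are RPKM adjusted by size factors. The use of strand is not stated.

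Counts were tested with edgeR 4.0.16 (TMM scaling, filterByExpr by genotype, quasi-likelihood F test, no covariate) on all 13 mice, and p-values were adjusted by Benjamini-Hochberg over all 17086 genes tested. A gene was called at an adjusted p of 0.05. limma 3.58.1 (voom, or log2(nRPKM + 0.1)) and DESeq2 1.42.0 were alternatives. Ratios of nRPKM were compared by exact permutation tests. The edgeR script was tested on simulated data in which 200 genes were changed. At an adjusted p of 0.05 it recovered 32.8% of genes with a log2 change of 0.5 in size. It recovered 58.6% at a size of 1 and 96.7% at a size of 2, with 3 false calls. True changes of the size seen for Fasn, Scd2 and Acaca can thus be missed. Intervals are 95%, are for the mean difference between genotypes, and rest on the spread between mice. Mice were grouped by the genotype label and numbered in accession order, so a number pairs nothing. Depth sets the floor for low genes: 3 counts correspond to 0.115 CPM in the shallowest library. Sequences came from GENCODE M21 transcripts and RefSeq promoters, both GRCm38. Rows without a gene name were not named. The enzymes, the gene lists and the tests were chosen with earlier results of these data known. Genes named were the 10 enzymes, called genes of the lists or else the one of smallest p, 6 regulators, and the most similar gene for each enzyme.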

Additional observations from a re-analysis of the deposited data

Results flagged for a closer look

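In 50 groups of values (the 10 enzymes, the 12 other named pathway genes and the 3 ratios, each within a genotype), 2 held a mouse set apart from its group by Dixon's criterion, where chance alone gives about 1 in 20, or 2.5 groups. Acaca in Trem2wt mouse 2 was 2.09 nRPKM, with the next mouse at 1.11. Srebf1 in Trem2wt mouse 3 was 21.7 nRPKM, with the next mouse at 16.0. Leaving out mouse 3 did not bring Srebf1 to the threshold in any leave-one-out fit, whose adjusted p ran from 0.221 to 0.522.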

How the results depend on the processing

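Over all tested genes, 262 were called lower and 86 higher. DESeq2 gave 530 and 332, females alone 173 lower, a required change of 2-fold 118 and 9, no filter 53 higher, and leaving out single mice 191 to 284 lower and 42 to 107 higher. Of the 10 enzymes, 0 were called lower by edgeR, 3 by DESeq2 and 0 to 1 when single mice were left out. The activation and incorporation list had 0 lower, with 2 in DESeq2 and 0 to 2 without single mice. The oxidation list had 1 lower (Echs1), with 0 without a filter, 0 in females alone and 0 to 1 without single mice. The other desaturation and elongation list had 0 higher, with 1 in DESeq2 and 0 to 1 without single mice. The difference in the Scd1 to Scd2 log2 ratio ran from 0.24 to 0.75 when single mice were left out, that of Fads1 to Fads2 from -0.18 to 0.29, and that of Elovl6 to Elovl5 from -0.73 to 0.14. The Scd1 log2 fold change was -0.15 in voom with limma, -0.053 with sex as covariate and -0.12 to 0.19 without single mice, and that of Elovl6, -0.09 in edgeR, was -1.03 in voom with limma, 0.075 in females alone and -0.34 to 0.16 without single mice. Of 221 other fits of the 10 enzymes, 207 kept the direction and the side of the threshold, 5 crossed into a call and 9 turned sign. Of 264 fits of the other named genes, 250 kept both, 12 lost and 2 gained the call. The cause of these shifts was not tested. No paired analysis was possible because the labels give no replicate numbers, although the methods state that mice of both genotypes were generally processed side by side. Low counts limit Elovl6, Elovl7, Fads2, Me1, Nr1h3 and Scd1, whose lowest count in a mouse ran from 2 to 47. Depth did not set all of these low values. Trem2ko mouse 1, the deepest library at 120569609 counts, had the lowest Elovl6 count (18) and the lowest Elovl7 level (0.0028 nRPKM).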
